A study of Mus musculus with 3 samples.

Results

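The nuclear genes for the subunits of oxidative phosphorylation were taken from the gene counts by their symbols. A gene was a member if its symbol was *Nduf* followed by a, b, c, s or v and a number, *Sdha* to *Sdhd*, or began with *Uqcr*, with *Cox4* to *Cox8* or with *Atp5*, and if it was not named as a pseudogene. Of 24062 gene symbols, 83 were members. By the complex that each protein belongs to, 35 were genes of complex I, 4 of complex II, 8 of complex III, 19 of complex IV and 17 of complex V. *Ndufa4* was placed in complex IV, where its protein was later found, although its name is that of complex I. RNA came from the rostrum, which is the front of the head, of E9 mouse embryos with 18 to 22 somites. One group was *tuft*, homozygous for the spontaneous nonsense mutation *Tet1* tuft and selected for neural tube closure defects, and the other was its wild-type background strain, 3H1 Balb. RNA of 3 embryos of a genotype was pooled for a library. The labels name 1 wild-type and 2 *tuft* samples, and there was 1 column of counts for each genotype, so the *tuft* column may be either sample or their sum. It is called the *tuft* library below. Each comparison was between these 2 columns, and differences between embryos could not be seen. In such bulk RNA, fewer cells of a type and less RNA per cell cannot be told apart.

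Oxidative phosphorylation takes place in the inner mitochondrial membrane. Complexes I and II pass electrons from NADH and succinate to ubiquinone, complex III passes them on to cytochrome c, and complex IV passes them to oxygen. Complexes I, III and IV pump protons out of the matrix, and complex V, the ATP synthase, lets them return and makes ATP. Each complex holds its subunits in fixed proportions, and except in complex II some of the subunits come from the mitochondrial genome. No symbol of a mitochondrial gene was among the counts analysed here.

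RNA-Seq counted the reads on each gene. The wild-type library held 14251942 counts on genes and the *tuft* library 6433067. Counts were scaled by TMM, which sets a trimmed mean of the log ratios over genes, weighted by their precision, to 0. On that scale 0.343 counts in *tuft* equalled 1 count in wild type. Every fold change below is *tuft* over wild type on that scale and carries a 95% Clopper-Pearson interval, which covers counting error and not the difference between embryos or libraries. *Tet1* itself had 435 counts in wild type and 32 in *tuft*, a fold change of 0.214 (0.145 to 0.307). Of 10 marker genes of the anterior head, 8 had more than 3 counts in both libraries. The list summed to 9605 unscaled counts in wild type and 5941 in *tuft*, and its genes were split. By the 2-fold rule given below, *Emx2* (6.43), *Six3* (4.14) and *Fezf1* (2.69) were called higher. *Rax* (389 and 2 counts, 0.0150) and *Hesx1* (36 and 0) were called lower, and 5 were not called. Markers of other tissues moved as well. The 8 yolk sac endoderm markers summed to 29272 counts in wild type and 1780 in *tuft*, with 6 of them called lower, *Amn* called higher (2.01) and *Apoa4* at 0 in *tuft*. The 6 red blood cell markers summed to 45488 and 228534. Of these, *Hbb-y* (32.4) and *Hba-x* (17.1) were called higher, *Alas2* was called lower (0.215), *Hbb-bh1* was at 1.08 and *Hba-a1* was at 0 in both. The 8 heart markers summed to 115 and 2, and the 8 trunk markers to 35 and 3. The part of these tissues in the differences below was not tested.

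The members did not move in one direction. Some subunits of a complex were several-fold higher in *tuft* and their partners in the same complex several-fold lower. A gene was tested if both libraries together held at least 10 counts, and it was called higher or lower if it differed by at least 2-fold and its interval did not reach 1. Of the 83 members, 78 were tested, and the other 5, *Ndufs5*, *Cox6a2*, *Cox7b2*, *Cox8b* and *Cox8c*, had no count in either library. Among the 78, 23 were called higher (29.5%) and 27 lower (34.6%). Of all 13979 genes tested, 21.2% were called higher and 37.3% lower. The median log2 fold change of the members was -0.13, with quartiles at -1.54 and 1.29, and that of all genes tested was -0.46. With a 4-fold threshold 12 members were higher and 15 lower, against 9.2% and 22.1% of all genes. NOISeq-sim, the program used in the study, as rewritten here, called 16 members higher and 24 lower, against 12.5% and 19.2% of the 17140 genes it tested. As a group the members held 1.33% of the unscaled gene counts in wild type (1.33% to 1.34%) and 1.21% in *tuft* (1.20% to 1.21%).

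**Figure D1:**
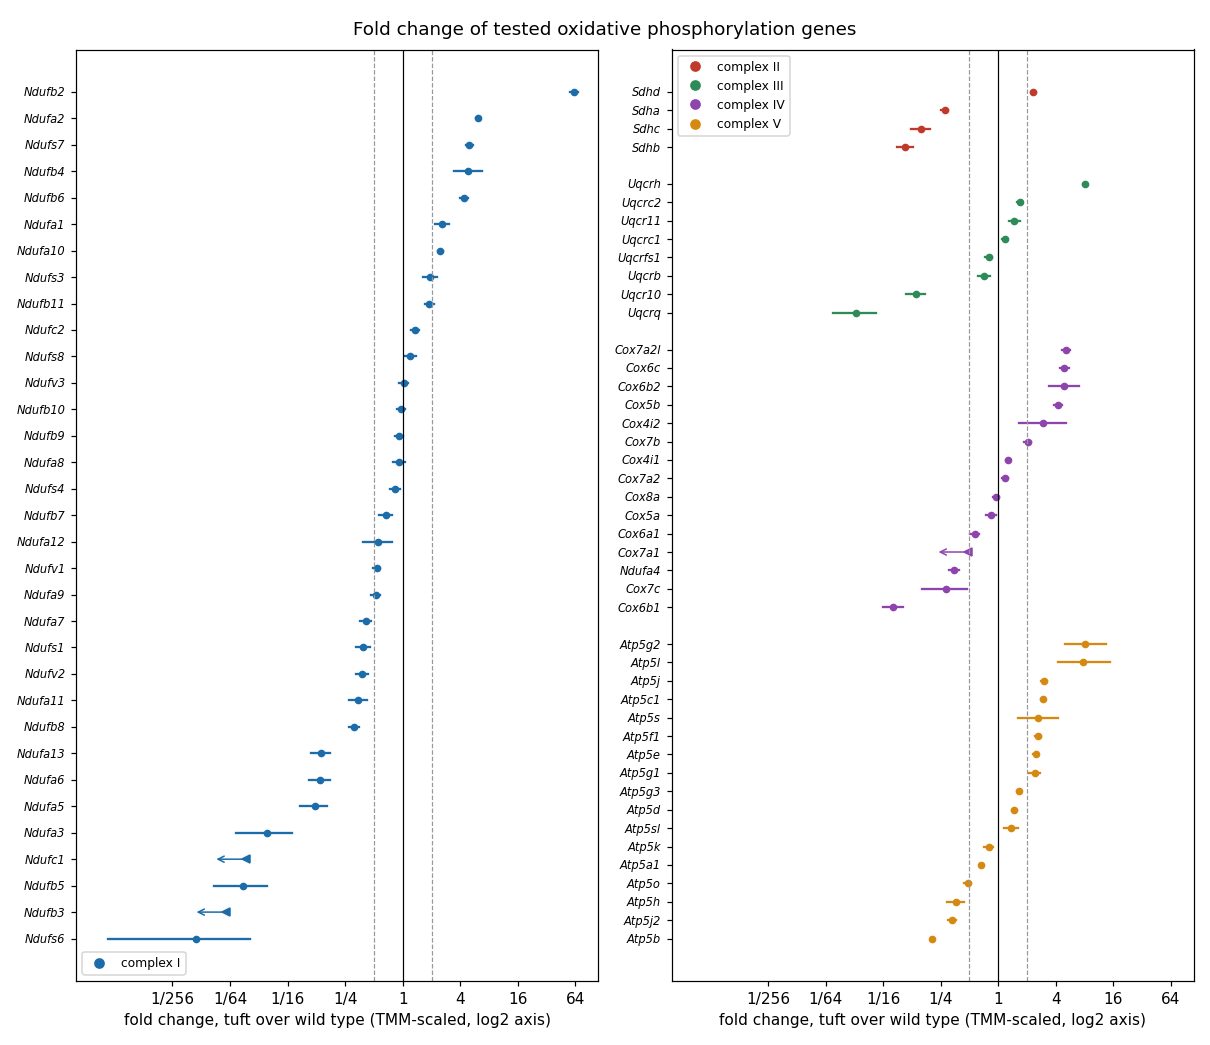
Fold change of tested members, *tuft* over wild type on a log2 axis, with complex I on the left and complexes II to V on the right. Points are TMM-scaled fold changes, bars are 95% counting intervals, arrowheads mark members with no count in *tuft* at the fold that 3 counts would give, and dashed lines mark 2-fold. Each complex holds members on both sides of 1, from *Ndufb2* at 61.4 to *Ndufs6* at 0.0069.

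**Figure D2:**
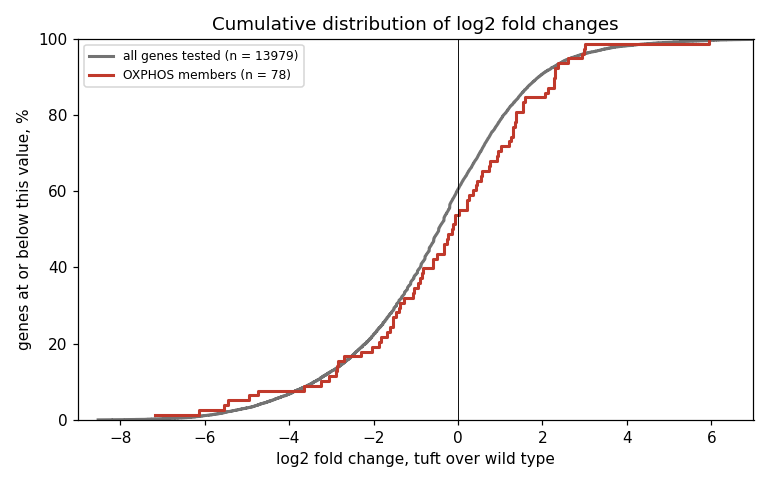
Cumulative percentage of genes at or below each log2 fold change, *tuft* over wild type, for the 78 tested members and for all 13979 genes tested. Both curves are wide, and the median of the members is at -0.13 and that of all genes at -0.46.

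The complexes differed in how their calls fell. Of all genes tested, 21.2% were called higher and 37.3% lower. In complex I, 7 of 34 tested members were called higher (20.6%) and 14 lower (41.2%), near those shares, with a median log2 fold change of -0.72. Complex II had 1 of 4 higher and 3 lower (median -2.28). In complex III, 1 of 8 was higher and 2 were lower (median -0.06), so that most of its members were not called. Complex IV had 6 of 15 higher (40%) and 4 lower (26.7%). Its median of 0.22 turned to -0.17 when libraries were scaled by their totals instead of by TMM. Complex V had 8 of 17 higher (47.1%) and 4 lower (23.5%), and its median of 0.73 was 0.33 with library totals. The median of all genes tested was -0.46 with TMM and -0.85 with library totals. The part of each complex in the unscaled gene counts moved too. Complex V fell from 0.620% of the gene counts in wild type to 0.376% in *tuft* and complex II from 0.0894% to 0.0480%, whereas complex III went from 0.131% to 0.230% and complex I from 0.319% to 0.397%. Complex IV held 0.171% and 0.155%. Single genes set 2 of these directions. Without *Uqcrh* complex III went from 0.107% to 0.0792%, and without *Ndufb2* complex I went from 0.316% to 0.253%. Without *Atp5b* complex V held 0.351% and 0.334%. These shares follow library totals, with which every log2 fold change shifted by -0.39 from its TMM value. A small fall in a share is therefore not always a fall on the TMM scale.

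Promoters of respiratory genes are known for binding sites of NRF1 and of ETS factors such as GABP. In RefSeq windows from 250 bases before to 50 bases after the start of transcription (GRCm38.p6), 66 members were found, with 71 windows. The letters GCGCANGCG, the core of the NRF1 site, were searched on both strands and stood in 29.6% of the member windows, against 12.4% of the windows of tested genes and 6.25% of all windows. The letters CCGGAAG, an ETS site, stood in 22.5%, 15.9% and 8.86%. Neither stretch of letters contains the other. The NRF1 letters were in 25% of the 20 windows of members called higher and in 32% of the 25 windows of members called lower. The ETS letters were in 30.0% and 12%, which are 6 and 3 windows. In the 23 windows of members that were not called, each of the 2 stood in 30.4%. These are descriptions of letters, and binding was not measured. The sequences below, chosen after the values were seen, are 30 bases of the strand of the gene, 5′ to 3′, upstream of the start, with the NRF1 letters in capitals. They come in pairs from complexes II, I and V, and in each pair one gene was lower and the other higher in *tuft*.
*Sdha* (lower, minus strand, chr13:74350319-74350348): cgtttacaggGCGCAGGCGcaccaccactc
*Sdhd* (higher, minus strand, chr9:50603909-50603938): tcgctggggtGCGCACGCGcggtggcagcg
*Ndufa5* (lower, minus strand, chr6:24527697-24527726): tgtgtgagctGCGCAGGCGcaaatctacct
*Ndufb4* (higher, minus strand, chr16:37654540-37654569): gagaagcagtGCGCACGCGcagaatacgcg
*Atp5h* (lower, minus strand, chr11:115420041-115420070): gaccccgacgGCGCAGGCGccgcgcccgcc
*Atp5g2* (higher, minus strand, chr15:102671070-102671099): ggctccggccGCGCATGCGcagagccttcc

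Complex I takes electrons from NADH at the tip of its matrix arm. The 3 core genes of that tip were all below 1 in *tuft*, under each scaling. *Ndufv3*, an accessory subunit of the tip, was at 1.02. *Ndufv1*, which holds the FMN that accepts the electrons, had 3780 counts in wild type and 695 in *tuft*, a fold change of 0.535 (0.493 to 0.581), and was not called. *Ndufv2*, an iron-sulphur subunit, had 1762 and 228 counts (0.377, 0.327 to 0.433). *Ndufs1*, the largest iron-sulphur subunit, had 1238 and 164 (0.386, 0.326 to 0.454). Both were called lower. Behind the tip lies the quinone-reducing part. *Ndufs7*, which carries the last iron-sulphur cluster before the quinone, had 945 and 1604 counts and was 4.94-fold higher (4.56 to 5.36). The core subunits *Ndufs3*, at 1.93, and *Ndufs8*, at 1.20, were not called.

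The accessory subunits surround this core and are needed to assemble or stabilise it. Of 27 tested, 6 were called higher (22.2%) and 11 lower (40.7%), near the 21.2% and 37.3% of all genes tested. *Ndufb2* stood far above the others. It lies at chr6:39592565-39599843 and had 442 counts in wild type and 9319 in *tuft*, a 61.4-fold increase (55.8 to 67.7). It alone held 36.5% of the complex I counts in *tuft*. *Ndufa2* followed, with 2057 and 4297 counts (6.08, 5.77 to 6.41), and its gene overlaps *Tmco6*. *Ndufb6* had 652 and 977 counts (4.36, 3.95 to 4.83). *Ndufb4*, *Ndufa1* and *Ndufa10* were also called, at 4.82, 2.55 and 2.46, and the latter pair was below 2-fold with library totals. *Ndufb4* had only 58 and 96 counts. Near-identical copies cover 49.8% of its transcript, so its fold change is uncertain.

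At the other end were accessory genes with almost no reads in *tuft*. *Ndufb3* had 612 counts in wild type and none in *tuft*, at least 70.1-fold lower if 3 counts are allowed for a count of 0. *Ndufc1* had 380 and 0 counts, at least 43.5-fold lower. *Ndufs6*, at chr13:73319876-73328482, had 844 and 2 counts, a ratio of 0.0069 (0.00083 to 0.025). All 3 were well covered in wild type. Among all tested genes with 300 to 1000 counts in wild type, 5.35% had 3 counts or fewer in *tuft*, and of the 22 members in that range these 3 did. That range was the one that holds these 3 genes. Over all tested genes the share was 23.5%, and over all tested members 5.13%. With at least 100 counts in wild type it was 8.27% of all genes and 4.23% of members. *Ndufb5* (1496 and 11 counts, 0.0214) and *Ndufa3* (771 and 10, 0.0378) came next. *Ndufa5*, *Ndufa6* and *Ndufa13* were between 0.120 and 0.139, and *Ndufb8*, *Ndufa11* and *Ndufa7* between 0.310 and 0.410. *Ndufb8* had the highest level per length of complex I in wild type, 378 TMM-scaled counts per 1000000 counts and per kilobase of transcript (CPM per kilobase), and 117 in *tuft*. The remaining 10 tested accessory genes were not called, with fold changes from 0.52 for *Ndufa9* to 1.89 for *Ndufb11*. Among them *Ndufv3* (1.02), *Ndufb10* (0.958), *Ndufb9* (0.923) and *Ndufa8* (0.907) had intervals that included 1.

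Complex II, succinate dehydrogenase, has 4 subunits and all are encoded in the nucleus. It was the complex with the lowest median. *Sdha*, the flavoprotein that oxidises succinate, lies at chr13:74322255-74350240 and had 5245 counts in wild type and 495 in *tuft* (0.275, 0.250 to 0.301). *Sdhb*, the iron-sulphur subunit at chr4:140961271-140979198, had 3021 and 110 counts (0.106, 0.0868 to 0.128). Both catalytic genes were therefore called lower. The membrane anchor is a pair of subunits that hold a haem between them, and its genes moved apart. *Sdhc* had 1465 and 78 counts (0.155, 0.122 to 0.195). *Sdhd*, at chr9:50596340-50603849, had 3009 and 2404 counts and was 2.33-fold higher (2.2 to 2.46), although with library totals it was not called. *Sdha* and *Sdhd* are the pair whose promoter stretches stand at the head of the sequences above. None of the 4 genes had a near-identical copy elsewhere in the genome. *Sdhd* held 77.9% of the complex II counts in *tuft*.

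Complex III was marked by a single gene. *Uqcrh*, the hinge protein that helps cytochrome c to dock, lies at chr4:116066965-116075070 and had 3539 counts in wild type and 9702 in *tuft* (7.98, 7.68 to 8.30). It had the most counts of any member in *tuft* and made up 65.6% of the complex III counts there, and it overlaps the predicted gene *Gm12854*. The large core proteins, *Uqcrc1* (4417 and 1765 counts, 1.16) and *Uqcrc2* (3364 and 1941, 1.68), were not called. *Uqcrfs1*, the Rieske iron-sulphur protein and the one catalytic subunit among the members, had 2371 and 645 counts (0.792, 0.725 to 0.865) and was not called either. The small subunits differed most. Besides *Uqcrh*, *Uqcrq* had 1431 and 16 counts (0.0326, 0.0186 to 0.0531) and *Uqcr10* had 1791 and 84 (0.137, 0.108 to 0.170). *Uqcr11*, at 1.47, and *Uqcrb*, at 0.711, lay between them. The 3 called genes of this complex each overlap another gene (*Uqcrq* overlaps *Gdf9* and *Uqcr10* the predicted gene *Gm51883*). *Cyc1*, the cytochrome c1 of this complex, which the symbol rule left out, had 3505 and 1300 counts (1.08, 1.01 to 1.15).

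In complex IV, cytochrome c oxidase, the catalytic core is mitochondrial and the nuclear subunits surround it. Several exist in a form used in most tissues and in a form of certain tissues. Of the 6 tested genes of general forms, 1 was called higher and 1 lower. *Cox4i1*, with the highest level per length of the complex in wild type, had 5617 and 2455 counts (1.27, 1.21 to 1.33), *Cox8a* had 3990 and 1298 (0.947, 0.889 to 1.01) and *Cox7a2* had 2414 and 967 (1.17, 1.08 to 1.26). These abundant genes stayed within 2-fold. *Cox6a1* was at 0.566 and *Cox7b* at 2.03, the latter called with TMM and not with library totals or the upper quartile. *Cox6b1*, whose protein lies on the side of the intermembrane space, had 2715 and 74 counts (0.0794, 0.0621 to 0.1), the largest decrease of the complex.

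The tissue forms were at low counts. *Cox6b2*, the testis form of subunit 6b, had 53 counts in wild type and 88 in *tuft* and was 4.83-fold higher (3.40 to 6.93). Since *Cox6b1* moved the other way, the testis form made up 1.91% of the subunit 6b counts in wild type (1.44% to 2.50%) and 54.3% in *tuft* (46.3% to 62.2%). Per length, *Cox6b1* went from 329 to 26.1 CPM per kilobase and *Cox6b2* from 5.89 to 28.5. *Cox4i2*, the lung form of subunit 4, had 28 counts in each library (2.91, 1.66 to 5.10) and made up 0.496% of the subunit 4 counts in wild type (0.330% to 0.716%) and 1.13% in *tuft* (0.751% to 1.63%). *Cox7a1*, a form of heart and muscle, had 18 and 0 counts, at least 2.06-fold lower. *Cox6a2* and *Cox8b*, also of heart and muscle, and *Cox7b2* and *Cox8c*, of testis, had no count. The testis gene *Cox6b2* was thus the one tissue form that reached the level of its general partner.

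Subunits with a single form were split as well. *Cox6c* had 557 and 941 counts (4.92, 4.43 to 5.47) and *Cox5b*, which binds zinc, had 613 and 885 (4.20, 3.79 to 4.67). *Cox5a* was at 0.845 and was not called. *Cox7c* had 165 and 16 counts (0.282, 0.158 to 0.472). *Cox7a2l*, which links complexes III and IV into a supercomplex, had 717 and 1264 counts (5.13, 4.68 to 5.63). *Ndufa4* had 2775 and 330 counts (0.346, 0.308 to 0.388). *Cox7a2l*, *Cox5b* and *Cox7c* have near-identical copies over most of their transcripts, and *Cox6c* and *Ndufa4* have none.

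Complex V makes ATP in the head of F1, which the central stalk turns. In *tuft*, 1 of the 2 genes of the head was called lower and 2 of the 3 genes of the stalk were called higher. *Atp5b*, the catalytic beta subunit at chr10:128083307-128090388, was the most abundant member in wild type and had 38393 counts there and 2695 in *tuft* (0.204, 0.197 to 0.213). *Atp5a1*, the alpha subunit, had 19455 and 4415 counts (0.661, 0.639 to 0.683) and was not called. In the central stalk, *Atp5c1*, the gamma subunit at chr2:10056030-10080510, had 5076 and 5066 counts (2.91, 2.79 to 3.02), *Atp5e*, epsilon, had 2192 and 1853 (2.46, 2.31 to 2.62) and *Atp5d*, delta, had 3217 and 1617 (1.46, 1.38 to 1.55). All 3 stalk genes were above 1, with *Atp5c1* and *Atp5e* called, and all 3 stayed above 1 with library totals, where *Atp5e* lost its call. Per length, beta, alpha and gamma stood at 1226, 482 and 311 CPM per kilobase in wild type and at 251, 318 and 903 in *tuft*. At these median lengths the order of the levels was turned round. The annotated transcripts of *Atp5c1* run from 635 to 1735 bases and those of *Atp5a1* from 774 to 2674, so the order of alpha within a library depends on the transcript.

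The c ring and the peripheral stalk anchor F1 in the membrane. The genes *Atp5g1*, *Atp5g2* and *Atp5g3* encode the same mature subunit c. *Atp5g3* had 5827 and 3317 counts (1.66, 1.59 to 1.73) and supplied 91.9% of the subunit c counts in wild type and 87.6% in *tuft*. *Atp5g1* had 490 and 403 counts (2.39, 2.09 to 2.74) and *Atp5g2* had 24 and 66 (8.01, 4.95 to 13.4). All 3 were above 1, also with library totals, and *Atp5g1* and *Atp5g2* were called higher. The whole of the *Atp5g2* transcript has near-identical copies, so its few counts are uncertain. In the peripheral stalk, *Atp5j*, subunit F6 (1684 and 1732 counts, 2.99), and *Atp5f1*, subunit b (1248 and 1116, 2.60), were higher. *Atp5o*, the OSCP that joins the stalk to the head (3755 and 619, 0.480), and *Atp5h*, subunit d (888 and 110, 0.361), were lower. *Atp5h* and *Atp5g2* are the last pair of promoter stretches shown above. Of the small membrane subunits, *Atp5l*, subunit g, had 16 and 42 counts (7.64, 4.21 to 14.6), *Atp5j2*, subunit f, had 4213 and 473 (0.327, 0.297 to 0.360) and *Atp5k*, subunit e, had 1476 and 401 (0.791). *Atp5s* and *Atp5sl*, which match the symbol rule but are not settled subunits, were at 2.61 and 1.37. *Atp5g1*, *Atp5l*, *Atp5h* and *Atp5o* also have near-identical copies over most of their transcripts, and *Atp5f1* and *Atp5j* over part of theirs. All genes of the peripheral stalk are therefore copied members. Their split, like the fold changes of *Atp5g1* and *Atp5l*, is uncertain where the copies share reads.

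Levels per length show how even the subunits of a complex were. The level is the TMM-scaled CPM per kilobase of the median annotated coding transcript, for members with more than 3 counts in both libraries. In complex II the highest level was 1.47 times the lowest in wild type and 19.5 times in *tuft*. The standard deviation (SD) of the log2 levels over its 4 genes went from 0.28 to 2.04. In complex III, with 8 genes, the SD went from 0.75 to 2.64 and the range from 4.36-fold to 644-fold. In complex I, with 31 genes, it went from 1.45 to 2.07, and over its 27 genes without a near-identical copy from 1.15 to 2.14. As a whole, complexes IV and V did not widen. Their SD went from 2.34 to 2.12 and from 3.06 to 2.30. Without copied genes it went from 2.69 to 2.04 and from 2.90 to 2.51. In wild type, the tissue forms of complex IV and the copied *Atp5g2* and *Atp5l* of complex V were far below the other genes. So were *Atp5s* (1.61) and *Atp5sl* (13.4) of complex V, which have no copy and are not settled subunits. The values without copied genes still hold this pair, and the spread of complex V without it was not computed. Within complex IV, the 6 general forms went from 1.01 to 1.62 and the 4 subunits with a single form from 1.06 to 2.67. A wider spread in *tuft* was not particular to the members. All genes with more than 3 counts in both libraries went from an SD of 2.17 to 2.45. All genes with 1000 to 3000 counts in wild type went from 1.06 to 1.81. That range was set on the wild-type count, which narrows the spread in wild type by construction and not that in *tuft*. The widening in that range therefore cannot show whether the spread of genes in general grew.

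**Figure D3:**
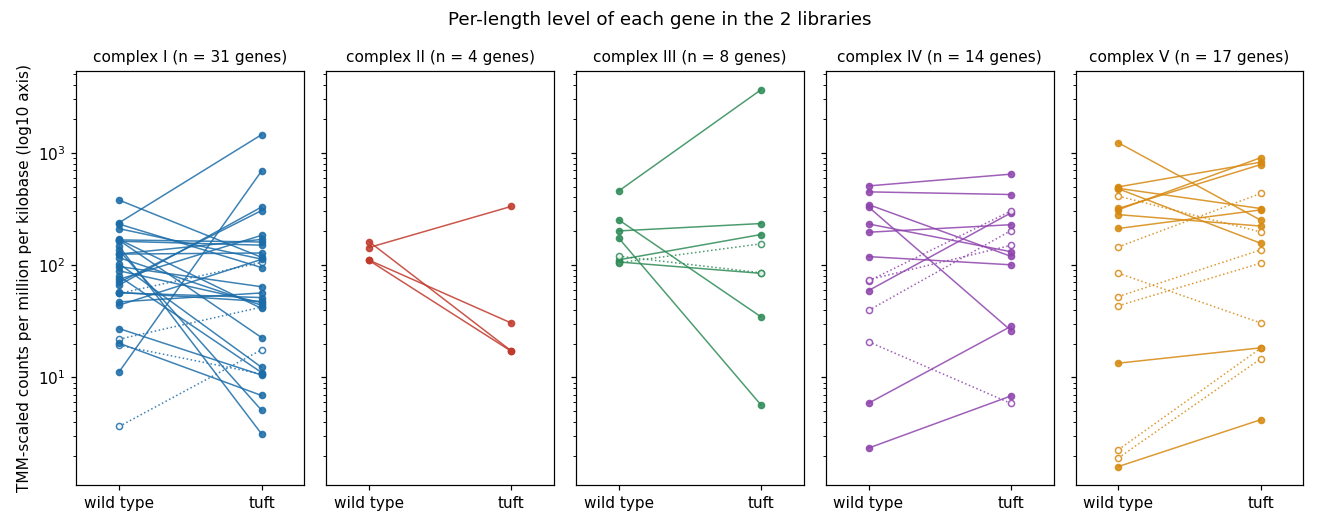
Level of each member in the wild-type and *tuft* libraries, in TMM-scaled CPM per kilobase on a log10 axis, by complex, for members with more than 3 counts in both libraries. Each line is a gene, and open points with dotted lines are genes with near-identical copies. The 4 genes of complex II lie within 1.47-fold of each other in wild type and within 19.5-fold in *tuft* at the median transcript length of *Sdhc*.

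These levels depend on the transcript length taken for a gene, whereas fold changes do not. *Ndufb2* has annotated transcripts of 455 and 4371 bases, and its level was 11.2 in wild type and 688 in *tuft* at their median, or 59.5 and 3650 at the shorter one. *Sdhc* has transcripts from 298 to 3171 bases, and at the shortest and longest the range of complex II was 2.72-fold and 5.73-fold in wild type and 19.4-fold and 75.9-fold in *tuft*. Without *Sdhc* it was 1.46-fold and 19.4-fold. The other 3 genes of complex II have 1 annotated transcript each, and their levels in wild type were 111, 143 and 162.

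Further subunits and partners do not carry the names used here. *Ndufab1*, the acyl carrier protein of complex I, had 131 and 1 counts (0.0222, 0.00056 to 0.126), *Usmg5*, a small protein of complex V, had 230 and 1 (0.0127, 0.00032 to 0.0712) and *Cycs*, cytochrome c, had 59 and 1 (0.0494, 0.0012 to 0.286). These 3 were called lower. *Atpif1*, the inhibitor of the ATP synthase, had 3114 and 5043 counts (4.72, 4.51 to 4.93), and *2010107E04Rik*, another small protein found with complex V, had 863 and 2817 (9.51, 8.80 to 10.3). Of the 7 such genes, 2 were called higher (28.6%) and 3 lower (42.9%), against 21.2% and 37.3% of all genes tested. Their calls, like those of the members, fell in both directions.

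Assembly factors build the complexes and are not part of them. Of all genes tested, 21.2% were called higher and 37.3% lower. For complex I, 4 of 14 tested factors were called higher (28.6%) and 5 lower (35.7%), near those shares. *Timmdc1*, which helps to build its membrane arm, had 662 and 2005 counts (8.82, 8.07 to 9.64), and *Acad9*, of the same assembly complex, had 977 and 2 (0.00596, 0.00072 to 0.0216). For complexes II and III, 3 of 7 were higher (42.9%) and 1 was lower (14.3%). Among the higher ones was *Bcs1l*, which inserts the Rieske protein (317 and 436 counts, 4.01). For complex IV, 4 of 19 were higher (21.1%) and 5 lower (26.3%). *Coa7* was at 4.60 and *Sco1*, a copper chaperone, at 3.27, whereas *Cox14* had 384 and 5 counts (0.0379) and *Coa4* had 187 and 1 (0.0156). For complex V, *Atpaf2*, the chaperone of the alpha subunit, had 811 and 1316 counts (4.73, 4.33 to 5.16). *Atpaf1*, the chaperone of the beta subunit, had 50 and 4 (0.233, 0.0611 to 0.635). *Atp5a1* was at 0.661 and *Atp5b* at 0.204, so the call of *Atpaf2* and the fold change of its client lay on opposite sides of 1.

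Of 15 tested regulators of respiratory genes and of mitochondrial DNA, 3 were called higher and 8 lower, with a median log2 fold change of -1.16. *Nrf1*, the factor of the promoter letters above, had 1597 and 1206 counts (2.2, 2.04 to 2.37), *Yy1* had 1291 and 1024 (2.31, 2.13 to 2.51) and *Pprc1*, a coactivator, had 5179 and 5292 (2.98, 2.86 to 3.09). Among these regulators, 20% were called higher and 53.3% lower, against 21.2% and 37.3% of all genes tested. Of the 8 lower genes, 4 are known to copy, pack or transcribe mitochondrial DNA. *Tfam*, which packs that DNA and starts its transcription, had 1194 and 67 counts (0.163, 0.126 to 0.209), *Polrmt*, the mitochondrial RNA polymerase, had 949 and 11 (0.0338, 0.0168 to 0.0607), and *Tfb2m*, its initiation factor, had 116 and 0, at least 13.3-fold lower. *Peo1*, the mitochondrial helicase, was the fourth, at 0.386. *Tfb1m*, which modifies mitochondrial ribosomal RNA, was called lower at 0.276. *Polg*, the mitochondrial DNA polymerase, was at 0.881 and was not called. *Gabpa*, the DNA-binding part of GABP, was at 1.55 and was not called, whereas its partner *Gabpb1* was at 0.449. *Sp1*, a general promoter factor, and *Ppargc1b*, a coactivator, were also called lower, at 0.257 and 0.0594.

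Other large groups of housekeeping genes also had calls in both directions. Of all genes tested, 21.2% were called higher and 37.3% lower. Of 80 cytosolic ribosomal protein genes, 24 were called higher (30%) and 26 lower (32.5%), with a median log2 fold change of -0.14. Of 77 mitochondrial ribosomal protein genes, 17 were higher (22.1%) and 25 lower (32.5%), near the shares of all genes (median -0.31). The enzymes of fuel use moved less often past 2-fold. Of 13 enzymes of the tricarboxylic acid cycle, 2 were called higher and 3 lower (median -0.25), and of 17 glycolysis enzymes, 2 and 3 (median -0.32). The members, with 23 and 27 of 78, were nearest to the cytosolic ribosomal proteins. No test of the difference between these lists was made.

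**Figure D4:**
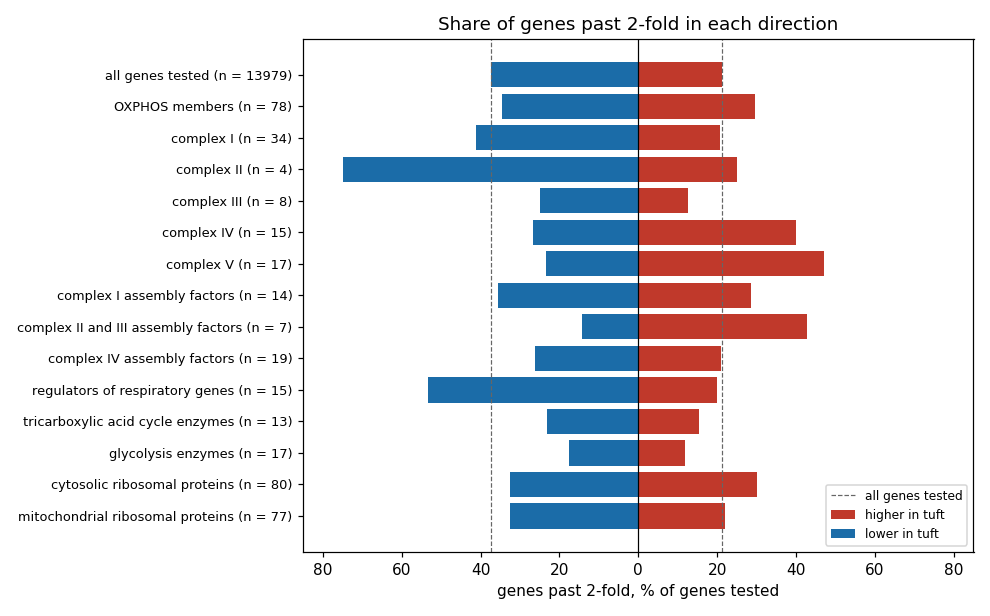
Percentage of tested genes called higher (to the right) and lower (to the left) in *tuft* by the 2-fold rule, for all genes, the members, each complex and related lists, with the number tested in parentheses. Dashed lines mark all genes, at 21.2% and 37.3%. Complexes II, IV and V lie beyond the higher line, where complex II has no call with library totals, and complexes I and II lie beyond the lower one.

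Many of these genes are small and have copies in the genome, which bears on how reads are counted. Of all entries in the count tables, 51.4% in wild type and 59.2% in *tuft* were alignments that were not unique and that were given to no gene. When member transcripts were aligned to the genome, 19 members had a stretch of at least 100 bases with 97% identity or more elsewhere. The 18 of these that were tested had 9 called higher (50%) and 4 lower (22.2%), with a median log2 fold change of 0.98. The 60 tested members with no such copy had 14 higher (23.3%) and 23 lower (38.3%), with a median of -0.30. These last shares were near the 21.2% and 37.3% of all genes tested, so the larger share of higher calls lay mostly in the copied members. In complexes IV and V, 3 members each were called higher without the copied genes. *Ndufs5*, at 0 in both libraries, has near-identical copies over 96.0% of its transcript. Fold changes of copied members are uncertain where the copies share reads, and *Ndufb2*, *Sdhb*, *Ndufs6*, *Cox6b1*, *Cox6b2* and *Atp5b* had neither such a copy nor a pseudogene named for them. *Uqcrh* and *Atp5c1* had no such copy, but each has a pseudogene named for it. The 22 members that overlap another gene, and whose reads may be split or left out, are a further limit. The 36 called members that overlap no gene were 16 higher and 20 lower.

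The balance of calls depends on the minimum count. Of the 71 members with at least 100 counts in wild type, 17 were called higher and 26 lower, with a median log2 fold change of -0.27. Of the 10121 genes with as many, 20.4% were higher and 33.7% lower (median -0.25). This minimum leaves out by construction genes with few counts in wild type. Of the 7 tested members below it, 6 were called higher and 1 lower, against 23.5% and 46.7% of all such genes. Of the 57 members with at least 100 counts in both libraries, 17 were called higher and 13 lower, with a median log2 fold change of 0.22. Of the 6765 other genes with as many counts, 29.9% were called higher and 12.7% lower (median 0.35). A minimum in both libraries leaves out by construction genes that fell to low counts in *tuft*, so 20 of the called members, 14 of them lower and 6 higher, are not seen in these counts. Among them are *Ndufs6*, *Uqcrq*, *Cox6b1* and *Cox6b2*.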

How the data were processed

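Poly-A RNA of E9 rostrums was sequenced, with 1 library for each genotype. The authors aligned single-end Ion Proton reads to mm10 with TopHat2 2.0.14 and Bowtie2 2.2.5 and counted them with htseq-count, and they deposited raw counts per gene symbol. The version and strand setting of htseq-count are not given in the sources used here. Its 5 summary lines were left out of library totals. Although 2 *tuft* samples are labelled, there was 1 *tuft* column, which was taken for the genotype and not for either sample. The sample records give 30 ng of input.

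Without replicates the quasi-likelihood test of edgeR cannot be fitted, so no p-value was given. Counts were scaled with TMM (edgeR 4.0.16, R 4.3.3) over all genes, and fold changes and exact 95% Clopper-Pearson intervals, which cover counting error only, were computed in Python 3.11.15 with scipy 1.17.1. A count of 0 was set to a floor of 3 counts for fold changes, so that such a fold is a lower bound. NOISeq-sim, the method of the study, was rewritten in Python with numba 0.67.0 and its default parameters at P_NOI above 0.95. The scripts were tested on simulated data. Near-identical copies were found with blastn 2.17.0 in NCBIM37, transcript lengths came from GENCODE vM1 of that build, and positions, overlaps and promoter windows from RefSeq GRCm38.p6. All 83 members had a length and a position.

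Named were, per complex, the highest and lowest fold changes among members with 100 counts or more in both libraries (2 each in complexes I, IV and V, 1 each in II and III), members with 3 counts or fewer in 1 library, isoform groups, and the highest level of each complex. Further members were named after their values were seen. The members and lists were chosen with earlier results of these data known. Alternatives were library totals, the upper quartile and DESeq2 size factors (computed from their definition), other minima, other folds, NOISeq-sim, and leaving out members that overlap a gene, have a named pseudogene or are not settled subunits. One member is counted among the totals and is not reported by itself here.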

Additional observations from a re-analysis of the deposited data

How the results depend on the processing

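With library totals in place of TMM, every fold change shifted by -0.39 on the log2 scale. Then 15 members were called higher and the median was -0.52, and the lower count went from 27 to 31. Of the 50 calls 42 were kept and 8 were lost (*Ndufa1*, *Ndufa10*, *Sdhd*, *Cox7b*, *Atp5s*, *Atp5f1*, *Atp5e* and *Atp5g1*), with 4 new ones, *Ndufa12*, *Ndufv1*, *Ndufa9* and *Cox6a1*. Higher calls were 46.0% of all calls with TMM and 32.6% with library totals. At 4-fold, 12 members were higher and 15 lower. With members that have no near-identical copy, an alternative chosen after the data were seen, 14 were higher. NOISeq-sim lost 10 of the 50 calls. None of the 13 alternatives turned a call to the opposite direction, but they could not have done so. The largest shift by a scaling was -0.39 on the log2 scale, and a call needs at least 2-fold. In complex III, leaving out members that overlap a gene left 0 calls in each direction. No paired analysis was possible because each genotype has 1 column of counts, and for the same reason no library could be left out. Depth limits the members with few counts in *tuft*, where 3 counts are 0.535 TMM-scaled CPM.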
